A study of Mus musculus with 13 samples.

Results

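Cerebellins, their presynaptic receptors the neurexins and the delta glutamate receptor gene Grid1 were described in Ret-positive cells of mouse dorsal root ganglia (DRG). The 7 genes, of 41388 in the count files, are Cbln1, Cbln2, Cbln3, Cbln4, Nrxn2, Nrxn3 and Grid1, found by symbol. They were chosen by family around Cbln1, whose difference between spinal levels was already known from these same libraries. Their differences between levels are therefore given as a description, with no p-value, and where calls of members between levels are counted nothing is read from the count. Other genes of these families are not analysed here.

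All mice were C57BL/6 of 3 months carrying the allele labelled Tg(Ret-EGFP)SJ, with enhanced green fluorescent protein knocked into 1 copy of Ret, a receptor tyrosine kinase for ligands of the GDNF family. Cells of ganglia from spinal levels L3, L4 and L5 (L345) or L6 and S1 (L6S1) were sorted by flow cytometry and their RNA sequenced. The 13 libraries comprised 3 of female L345 (14 mice), 3 of female L6S1 (16 mice), 3 of male L345 (11 mice) and 4 of male L6S1 (20 mice). Each library pooled 2 to 9 mice, and every group carried the reporter. The labels leave unsaid whether a mouse could contribute to L345 and L6S1 libraries alike. The sort keeps any cell with the reporter, so a library can mix cell types, and in such bulk samples fewer cells of a type and less RNA per cell cannot be told apart.

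Cerebellins are small secreted proteins of the C1q family that are released at synapses. In the cerebellum, where they are best known, Cbln1 from granule cell axons binds neurexins on the presynaptic side and delta glutamate receptors on the postsynaptic side, and the bridge holds the synapse together. DRG neurons end in synapses on neurons of the spinal cord and brainstem, so their own neurexins lie on the presynaptic side there.

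Total counts per library ran from 13030096 to 27011995, and 15406 genes passed the filter on low counts and were tested. Values are read counts relative to library size (CPM), scaled by TMM factors. Levels of different genes are compared as CPM per kilobase of exon (RPKM) on the same scaling. Summed markers of sensory neurons were at 10729 to 17311 CPM in every library and those of autonomic neurons at 0 to 1.06 CPM. The 6 summed markers of spinal cord glia were at 2.99 to 8.65 CPM, of which Aqp4 made up 1.09 to 7.69 CPM, and Olig1 was at 0 in every library. Male L6S1 libraries D and E stood apart from the other 11. The neuropeptide gene Calca was at 14253 and 17037 CPM there against 4960 to 8773 CPM elsewhere, and it made up most of the 8 summed markers of Ret-positive neuron types, at 16117 and 18601 CPM against 6968 to 10381. Of the same list, Mrgprd and Gfra2 were lowest in D and E, Mrgprd at 239.98 and 90.0 CPM against 287 to 619.8, and Gfra2 at 132 and 64.0 CPM against 207 to 342. The 9 immune markers were at 26.2 and 36.7 CPM against 7.83 to 17.7, and the 10 glial markers at 9499 CPM in E against 3112 to 4555 CPM in the other 12. Ret itself was lowest in these libraries, at 154 CPM in D and 87.2 CPM in E against 181 to 221 CPM elsewhere. The sensory neuron markers behind the sum went both ways in D and E. Pou4f1 was at 412 and 264 CPM there against 635 to 1021 elsewhere, and Scn10a at 267 and 148 CPM against 281 to 680. Uchl1 was at 3325 and 2438 CPM there against 952 to 2190 elsewhere. Fitted differences of the neurexins in males and between the sexes are given with and without D and E. So is the difference of Cbln1 between levels averaged over the sexes, but not that in males alone.

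Counts per gene do not show where in a gene its reads fell. The end of the coding sequence is shown for 3 cerebellins, to let the reader see how far these related genes differ there. These are the last 120 coding bases, stop codon included, of the transcript that GENCODE vM21 numbers first for each gene on GRCm38.p6, all on the minus strand: Cbln1 at chr8:87470254-87470373, Cbln3 at chr14:55882980-55883099 and Cbln4 at chr2:172037370-172037489. Capitals mark bases that differ from Cbln1 at the same distance from the end.
Cbln1: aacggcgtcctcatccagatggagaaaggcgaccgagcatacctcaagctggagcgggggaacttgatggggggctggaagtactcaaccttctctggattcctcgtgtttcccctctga
Cbln3: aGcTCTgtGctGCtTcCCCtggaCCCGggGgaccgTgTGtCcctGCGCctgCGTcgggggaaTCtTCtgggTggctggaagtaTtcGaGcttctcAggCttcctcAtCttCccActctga
Cbln4: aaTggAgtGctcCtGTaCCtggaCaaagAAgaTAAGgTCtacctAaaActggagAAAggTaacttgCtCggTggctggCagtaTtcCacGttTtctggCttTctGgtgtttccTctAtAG

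Over these 120 bases Cbln3 had 65.8% and Cbln4 68.3% of bases in common with Cbln1, in runs of at most 11 and 8 bases. Over whole annotated transcripts, the longest stretch shared exactly by any pair of the 4 cerebellins was 13 to 21 bases, and by Nrxn2 and Nrxn3 23 bases. Of the 7 genes, Nrxn2 had 7.28% of its exon bases under genes on the opposite strand, among them the urate transporter gene Slc22a12, and Grid1 had 1.49% under Gm27617. Whether strand was used in counting is not given in the sources used here, so reads of such overlaps cannot be told apart.

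Levels per length spanned the range from near the detection limit to the upper part of the genes tested. Nrxn3 was highest at 9.47 ± 3.30 RPKM (SD, n = 13 libraries), above 70.6% of the genes tested. Cbln2 followed at 3.01 ± 1.02 RPKM. Cbln1 was at 0.922 ± 0.691 and Nrxn2 at 0.804 ± 0.300 RPKM over all libraries, and their order turned with level. Nrxn2 was above Cbln1 in every L345 library and below it in every L6S1 library. Grid1 was at 0.304 ± 0.0908 and Cbln4 at 0.298 ± 0.361 RPKM. Grid1 was above Cbln4 in every L345 library, while the L6S1 libraries went both ways. Cbln3 was at 0.0213 ± 0.0195 RPKM. Nrxn3 lay above Cbln2 in 12 libraries, and in male L6S1 E the values were 2.57 RPKM for Nrxn3 and 2.61 RPKM for Cbln2.

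Cbln1, on the minus strand of chromosome 8 at 87468854 to 87472592 (GRCm38), was higher in L6S1 than in L345 libraries of both sexes. In females it stood at 0.955, 0.912 and 0.986 CPM in L345 libraries A, B and C and at 3.62, 2.53 and 1.73 CPM in L6S1 libraries A, B and C. In males it stood at 0.446, 1.16 and 0.535 CPM in L345 libraries A, B and C and at 1.65, 4.19, 5.38 and 3.90 CPM in L6S1 libraries A, D, E and F. All 7 L6S1 libraries lay above all 6 L345 libraries, with library A lowest of the male L6S1 group and highest of the female one. The group means were 0.833 ± 0.280 CPM (SD, n = 6) at L345 and 3.28 ± 1.38 CPM (n = 7) at L6S1.

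On the log2 scale the fitted difference of Cbln1 between levels was 1.91 (SE 0.33) averaged over the sexes, 1.46 (SE 0.47) in females and 2.36 (SE 0.47) in males. A fit with the library letter as a replicate block gave 1.04 (SE 0.58) in males. Male L6S1 D, E and F have letters of their own, so that male value rests on L6S1 library A. Of the 15406 genes tested, 0.539% had all L6S1 libraries above all L345 libraries and 0.448% were called, that is, had an adjusted p under 0.05 by edgeR's quasi-likelihood test in the average over the sexes. Cbln1 was the 1 of the 6 members fitted that was called there, and since it was chosen with this contrast known, nothing is read from that count. Its call was lost without female L345 B (1.89), without male L345 C (1.82) and without D and E together (1.68, SE 0.33, with 0.476% of genes called). With that block, which called 5.43% of genes, the average difference was 1.23 (SE 0.35) and was not called.

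Cbln4, on the minus strand of chromosome 2 at 172036233 to 172043466, encodes a cerebellin that binds neurexins and also the netrin receptors DCC and neogenin. It was scarce, with 230 reads in all. Females had 0.106, 0.456 and 0.123 CPM in L345 libraries A, B and C and 1.28, 3.61 and 2.21 CPM in L6S1 libraries A, B and C. Males had 0, 0 and 0.438 CPM in L345 libraries A, B and C and 0.890, 0.330, 0.468 and 1.35 CPM in L6S1 libraries A, D, E and F. The female groups did not overlap, which held for 4.89% of the genes tested, while male L6S1 D lay below the highest male L345 library.

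These values rest on 14 reads of Cbln4 in female L345, 135 in female L6S1, 9 in male L345 and 72 in male L6S1. A floor of 3 reads allows up to 0.223 CPM in male L345 A and 0.140 CPM in male L345 B, where it was at 0. Such floors and counts cover counting error only. Mean CPM at L6S1 was 10.4 times that at L345 in females and 5.20 times in males. The fitted difference was 2.80 (SE 0.63) averaged over the sexes, 3.35 (SE 0.88) in females and 2.25 (SE 0.91) in males. Without male L345 C the average became 5.17, a value set by male L345 libraries that are then all at 0 and so no measure of size. With the replicate block the average was 3.48 (SE 0.69). Cbln4 was not called in the average by the main edgeR fit, which called 0.448% of genes. It was called in 4 of 19 alternatives, the block (5.43% of genes), DESeq2 (1.01%), no filter on low counts and leaving out male L345 C. Genes called without the filter or without male L345 C are counted in the closing section. Nothing is read from the calls of Cbln4.

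Cbln2, the most abundant cerebellin here, lies on the plus strand of chromosome 18 at 86711110 to 86718283. Its mean was lower at L6S1. Females had 8.22, 8.56 and 10.6 CPM in L345 libraries A, B and C and 6.13, 6.98 and 7.91 CPM in L6S1 libraries A, B and C. Males had 17.2, 7.91 and 10.8 CPM in L345 libraries A, B and C and 6.99, 5.84, 7.54 and 8.49 CPM in L6S1 libraries A, D, E and F. The female groups did not overlap, as for 3.86% of genes in that direction, and the male groups did, since male L345 B lay below L6S1 F. The fitted difference was -0.55 (SE 0.21) averaged over the sexes, -0.38 (SE 0.30) in females and -0.72 (SE 0.28) in males. Leaving out male L345 A, the library with the highest value, brought the male difference to -0.37.

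Cbln3, which in the cerebellum is secreted together with Cbln1, was at or near the limit of detection. It had 27 reads in all and 0 to 5 reads per library, with 3 libraries at 0 and only 3 of 13 above the floor of 3 reads. It did not pass the filter and was not tested. Over 7 L6S1 libraries it had 20 reads and over 6 L345 libraries 7 reads.

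**Figure D1:**
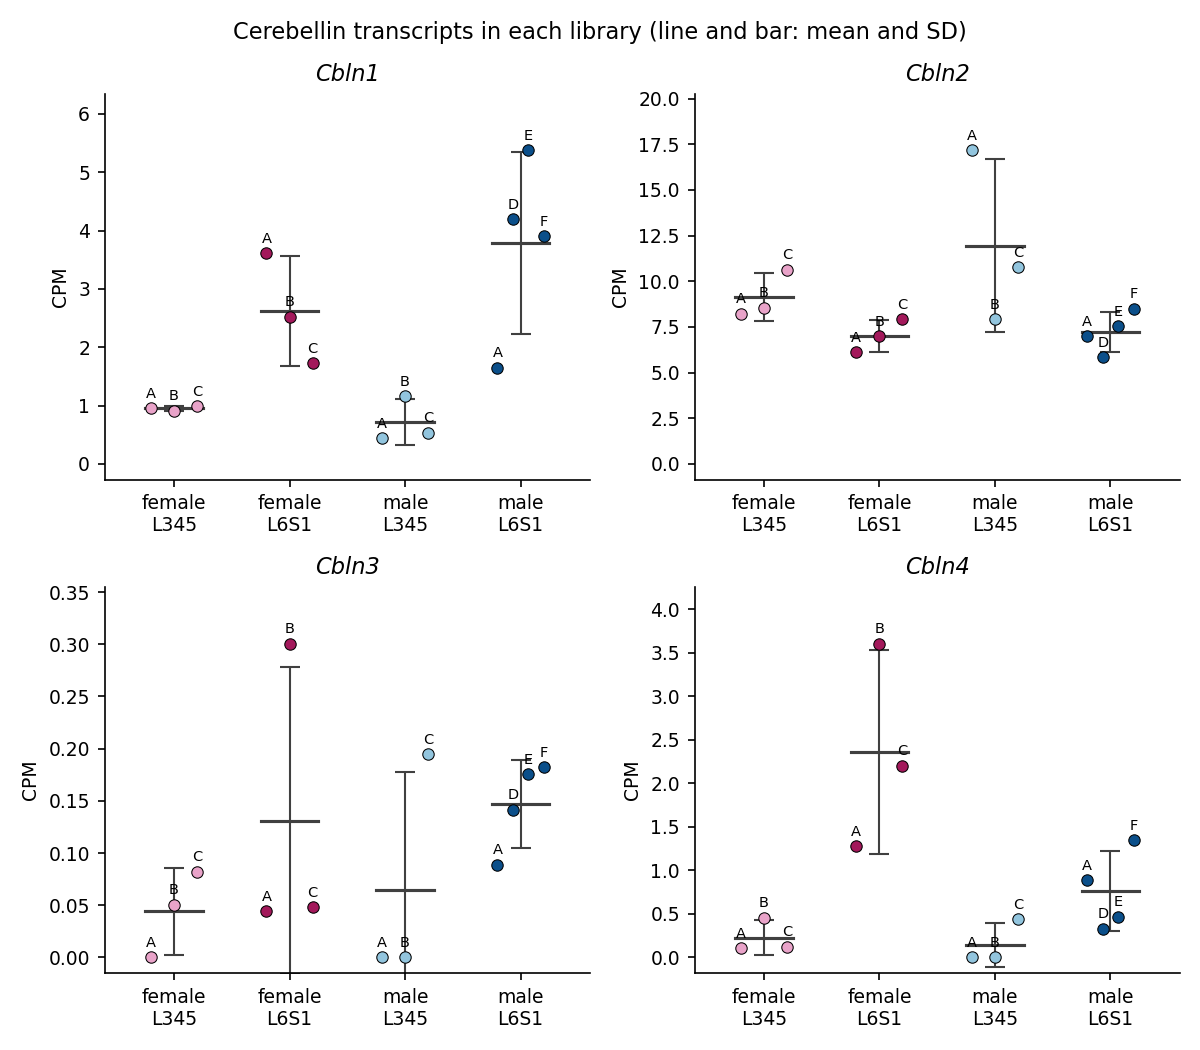
CPM of the 4 cerebellin genes (vertical axis, a separate scale in each panel) in each library, by group; points are libraries with their letters, and lines with bars are the mean and SD. Cbln1 lies between 0.446 and 1.16 CPM in L345 and between 1.65 and 5.38 CPM in L6S1, Cbln4 reaches 3.61 CPM in female L6S1 B, and Cbln3 stays at or below 0.301 CPM.

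The make-up of the cerebellin transcripts differed between levels, while the ranges of their sum overlapped. The summed RPKM of the 4 genes was 4.08 ± 1.08 (SD, n = 6) at L345 and 4.40 ± 0.629 (n = 7) at L6S1. In females it was 3.65 ± 0.451 (n = 3) at L345 and 4.39 ± 0.364 (n = 3) at L6S1. In males it was 4.50 ± 1.48 (n = 3) and 4.41 ± 0.838 (n = 4). A difference of the sum between levels was not tested. Cbln2 held 84.1% to 96.9% of that sum in the L345 libraries and 50.2% to 70.1% in the L6S1 libraries, so the levels did not overlap. Cbln1 held 9.63% on average at L345 and 31.6% at L6S1, in ranges of 3.12% to 15.4% and 17.4% to 45.4%. Cbln4 held 1.71% at L345 and 11.2% at L6S1. These shares are computed from the levels of the members, Cbln1 among them, and so are part of the same description.

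Within L6S1, the sexes split in the share of Cbln4. It was 10.7%, 25.9% and 17.9% in female libraries A, B and C, and 8.90%, 2.87%, 3.15% and 9.10% in male libraries A, D, E and F. Every female L6S1 library lay above every male one in this share. In CPM of Cbln4 the sexes overlapped, at 1.28 in female A and 1.35 in male F. The summed RPKM of the 4 genes, by which the share is divided, was 4.12 and 5.11 in these libraries. How many genes split the sexes at L6S1 was not counted. The share rests on few reads and was noticed in the values, so no test is given. Cbln1 held most in male D and E, at 45.4% and 45.1%, against 20.5% and 32.7% in male A and F.

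**Figure D2:**
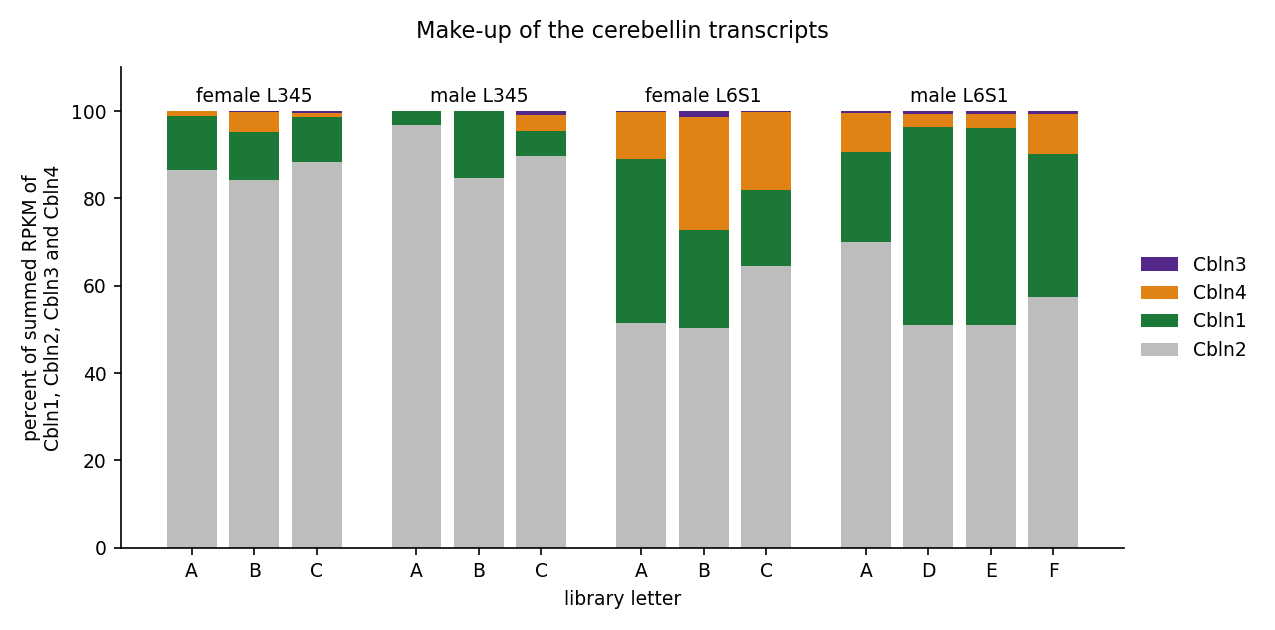
Share of each cerebellin gene in the summed RPKM of the 4 genes (stacked bars, percent, 1 bar per library). Cbln2 makes up at least 84.1% of each L345 bar and at most 70.1% of each L6S1 bar, and the Cbln4 segment is largest in female L6S1 B at 25.9%.

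Grid1 encodes GluD1, a delta receptor subunit that binds cerebellins from the postsynaptic side. It lies on the plus strand of chromosome 14 at 34819825 to 35583379. Females had 1.33, 1.27 and 1.07 CPM in L345 libraries A, B and C and 2.43, 2.59 and 1.82 CPM in L6S1 libraries A, B and C. These female groups did not overlap, as for 4.89% of the genes tested in that direction. Males had 1.93, 1.68 and 1.22 CPM in L345 libraries A, B and C and 1.65, 2.31, 2.05 and 2.77 CPM in L6S1 libraries A, D, E and F, where library A lay within the L345 range. The fitted difference was 0.68 (SE 0.24) averaged over the sexes, 0.90 (SE 0.35) in females and 0.46 (SE 0.32) in males. With the replicate block it was 0.39 (SE 0.27) on average and -0.11 (SE 0.45) in males.

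**Figure D3:**
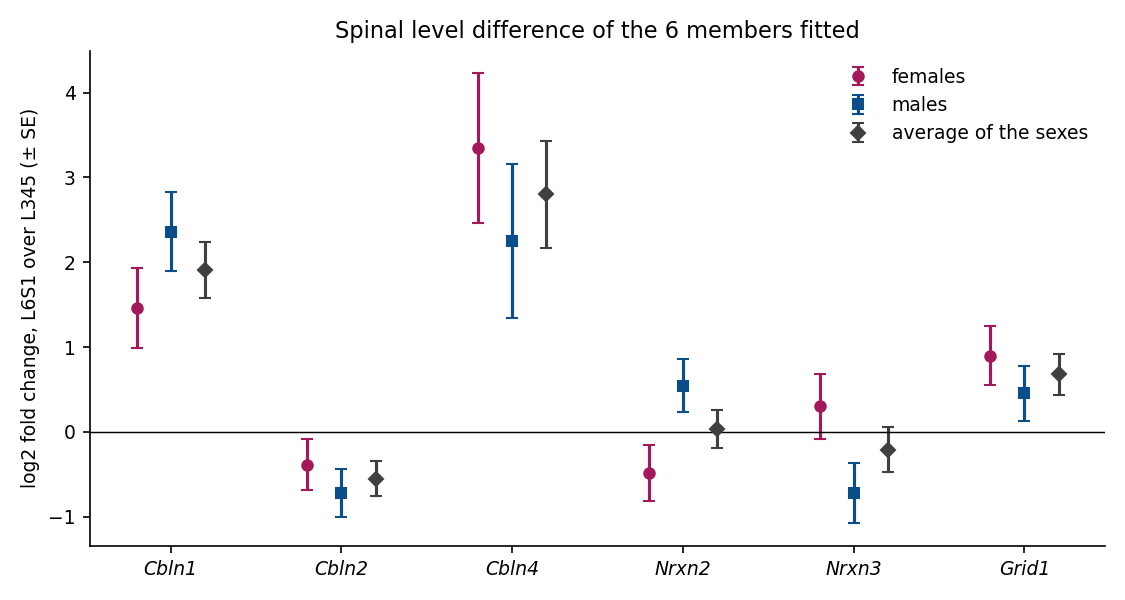
Fitted log2 fold change of L6S1 over L345 (vertical axis) for the 6 members that passed the filter, in females, in males and averaged over the sexes, with bars of 1 SE. Cbln1 and Cbln4 lie above 0 in both sexes, Cbln2 below 0 in both, and Nrxn2 and Nrxn3 have opposite signs in females and males, which for Nrxn2 the replicate block turned to -0.49 and -0.12.

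The neurexins are presynaptic adhesion proteins that bind cerebellins, neuroligins and other partners, and gene counts sum over their long and short forms. Nrxn3, on the plus strand of chromosome 12 at 88722876 to 90334935, had 144, 128 and 103 CPM in female L345 A, B and C and 200.1, 143 and 119 CPM in female L6S1 A, B and C. Males had 162, 114 and 118 CPM in L345 libraries A, B and C and 127, 70.3, 32.4 and 89.7 CPM in L6S1 libraries A, D, E and F. Male L6S1 D, E and F lay below every other library and E was lowest, whereas the female levels overlapped.

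Nrxn2 lies on the plus strand of chromosome 19 at 6418731 to 6544169. Females had 9.39, 12.5 and 10.3 CPM in L345 libraries A, B and C and 6.39, 10.0 and 6.62 CPM in L6S1 libraries A, B and C. Males had 9.22, 10.6 and 10.5 CPM in L345 libraries A, B and C and 8.19, 21.9, 16.1 and 12.8 CPM in L6S1 libraries A, D, E and F. The 3 male libraries in which Nrxn3 was lowest were those in which Nrxn2 was highest. The ratio of Nrxn3 to Nrxn2 per length was 3.52 in D, 2.21 in E and 7.70 in F, and 11.05 to 34.3 in the other 10 libraries.

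Fitted differences of the neurexins between levels had opposite signs in the sexes, except for Nrxn2 with the replicate block, at -0.49 (SE 0.17) in females and -0.12 (SE 0.26) in males. Nrxn3 was at 0.30 (SE 0.38) in females and -0.72 (SE 0.36) in males, and Nrxn2 at -0.48 (SE 0.33) in females and 0.54 (SE 0.31) in males. Without D and E the male differences were -0.29 (SE 0.26) for Nrxn3 and 0.04 (SE 0.28) for Nrxn2. D and E are the libraries whose marker values stand apart, as given above, and the part of those markers in the neurexin values was not tested.

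**Figure D4:**
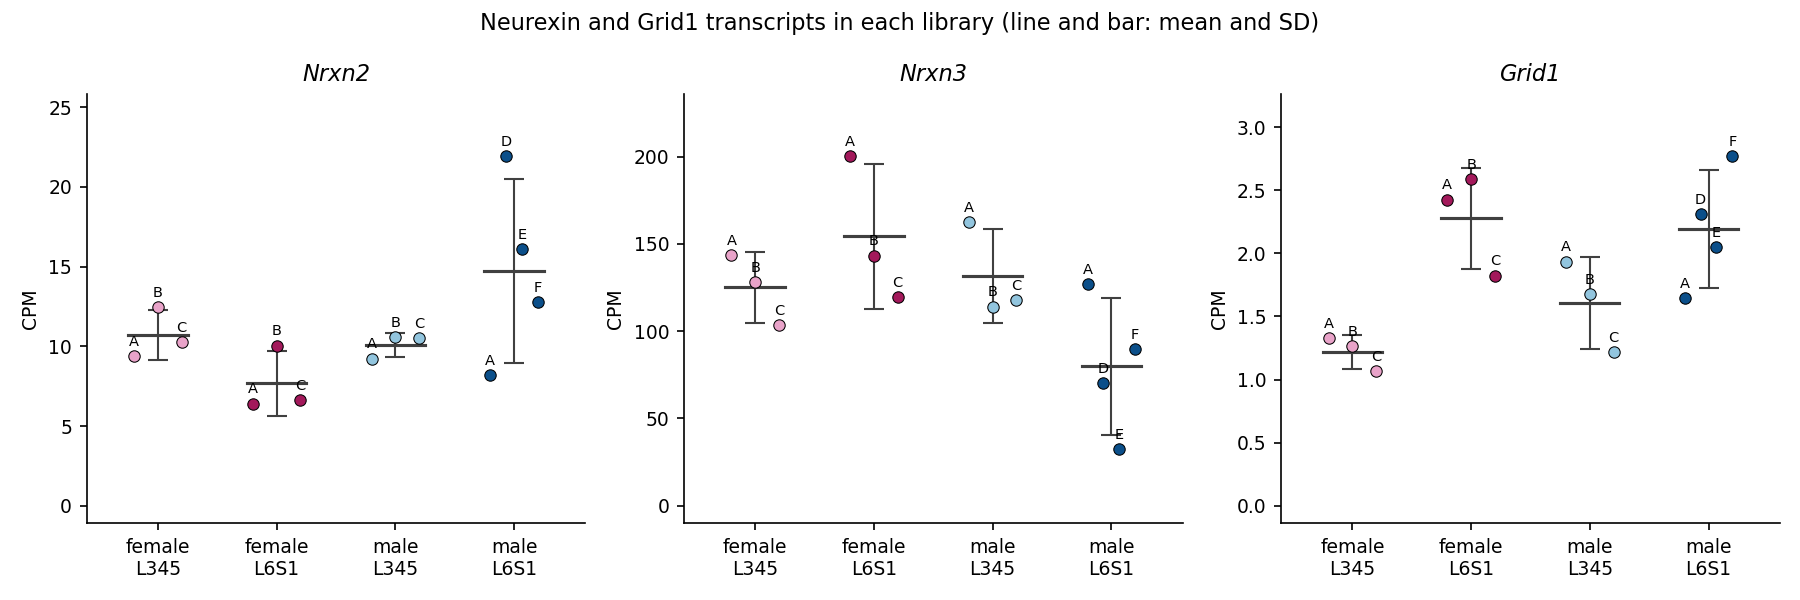
CPM of Nrxn2, Nrxn3 and Grid1 (vertical axis, a separate scale in each panel) in each library, by group; points are libraries with their letters, and lines with bars are the mean and SD. In male L6S1, D and E stand highest for Nrxn2 at 21.9 and 16.1 CPM and lowest for Nrxn3 at 70.3 and 32.4 CPM.

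The difference of the level effect between the sexes was tested for the 6 members fitted, a contrast that their choice did not use. By edgeR's quasi-likelihood test 0 of 6 members and 0% of genes were called, while 11.7% of genes had an unadjusted p under 0.05. DESeq2 called 0 genes as well. The log2 effect of level in males minus that in females was 1.02 (SE 0.45) for Nrxn2, with an edgeR adjusted p of 0.409. Nrxn2 was the 1 of 6 members with an unadjusted p under 0.05. For Nrxn3 it was -1.02 (SE 0.52), with an adjusted p of 0.410. Without D and E these became 0.53 (SE 0.37) and -0.58 (SE 0.35), with an adjusted p of 0.841 for both. With the replicate block they were 0.38 (SE 0.31) and -0.63 (SE 0.22), with an adjusted p of 0.574 and 0.213. For the other members the difference was 0.90 (SE 0.65) for Cbln1, -0.34 (SE 0.41) for Cbln2, -1.10 (SE 1.32) for Cbln4 and -0.44 (SE 0.47) for Grid1, with an adjusted p of 0.497 to 0.686.

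Males and females averaged over the levels were compared in the same way. By edgeR 0 of 6 members were called, where 0.0779% of genes were, and 0 of 6 had an unadjusted p under 0.05, where 6.1% of genes had. DESeq2 called 0 of 6. The largest estimate in size was that of Cbln4, lower in males by -1.05 (SE 0.64, adjusted p = 0.665), from 1.30 ± 1.39 CPM (SD, n = 6) in females and 0.496 ± 0.484 CPM (n = 7) in males. Without male L345 C, which leaves Cbln4 at 0 in both male L345 libraries, the estimate was -3.43 and was not called. Nrxn2 was at 0.43 (SE 0.23) and Nrxn3 at -0.44 (SE 0.26), both with an adjusted p of 0.665. Without D and E the values were 0.17 (SE 0.19) for Nrxn2 and -0.23 (SE 0.17) for Nrxn3. Cbln1 at 0.07 (SE 0.33), Cbln2 at 0.21 (SE 0.21) and Grid1 at 0.17 (SE 0.24) had an adjusted p of 0.750 to 0.955.

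Within 1 sex, edgeR called 0 of 6 members between levels in females, where 0.0195% of genes were called, and 0 of 6 in males, where 0.221% were. At an unadjusted p under 0.05 these were 3 of 6 in females, against 2.25% of all genes, and 3 of 6 in males, against 25.3%. DESeq2 called Cbln4 in females, where it called 0.254% of genes. In males Cbln1 was called in 4 of 19 alternatives, DESeq2 (7.53% of genes), RLE factors, no filter on low counts and leaving out male L6S1 A (20.5% of genes), the last of which also called Nrxn3 lower. These comparisons belong to the contrast with which the members were chosen, and nothing is read from the counts. The 4 male L6S1 libraries lay above the 3 male L345 libraries for 9.2% of genes and below for 9.49%, and Cbln1 was the 1 of 6 members above. All L6S1 libraries lay below all L345 libraries for 0.227% of genes and for 0 of 6 members.

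The genes that the members work with were described from 7 lists of 88 genes, of which 79 were tested. In the average over the sexes 0 of 79 were called at the threshold that 0.448% of genes passed. At an unadjusted p under 0.05 there were 11 of 79 (13.9%), 2 higher and 9 lower at L6S1, against 8.39% of all genes, and DESeq2 called 0. The median difference of the lists was -0.19, that of all genes 0.02. In females 0 of 79 were called and 3 (3.80%) passed unadjusted, against 2.25%, and DESeq2 called 0. In males 0 of 79 were called and 23 (29.1%) passed unadjusted, against 25.3%, with a median of -0.39 against 0.04 for all genes. The male comparison depended on the fit: DESeq2 called 6 of the list genes and 7.53% of all genes, the replicate block 6 and 4.67%, and leaving out male L6S1 A 21 and 20.5%.

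Neurexin ligands on the facing membrane were represented by 15 genes, all tested. Clstn1, a calsyntenin, was highest at 21.6 ± 4.56 RPKM (SD, n = 13), then Lrrtm2, a leucine-rich repeat protein, at 8.77 ± 4.61 and the neuroligin Nlgn3 at 8.47 ± 3.05 RPKM. Of the 15 genes, 7 had positive and 8 negative differences at L6S1, with a median of -0.06 averaged over the sexes. Igsf21, a ligand of neurexins at inhibitory synapses named here after its value was seen, had the largest, 1.12 (SE 0.34, adjusted p = 0.285).

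Of 8 secreted relatives and secreted neurexin ligands 3 were tested. C1ql4, a C1q-like protein, was at 2.84 ± 1.11 and the neurexophilins Nxph3 at 2.53 ± 0.805 and Nxph4 at 0.329 ± 0.205 RPKM. C1ql4 thus lay near Cbln2 in level. Among the other receptors of cerebellins and C1q-like proteins, the netrin receptor Neo1 was at 1.73 ± 0.380 and the adhesion receptor Adgrb3 at 0.768 ± 0.267 RPKM, while Dcc was at 0.0162 ± 0.0190 RPKM and was not tested. Neo1 differed by -0.40 (SE 0.18) and Adgrb3 by -0.54 (SE 0.25) at L6S1, with an adjusted p of 0.574 and 0.586.

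The 12 cytoplasmic partners of neurexins were all tested and included the most abundant list gene, the syntenin gene Sdcbp at 318 ± 69.3 RPKM. Lin7c at 30.4 ± 13.5 and Apba1 at 21.98 ± 4.46 RPKM, adaptors of the complex around CASK, followed. Of the 12, 5 had positive and 7 negative differences. The postsynaptic scaffold list (10 of 11 tested) was led by Gphn, gephyrin, at 12.5 ± 3.32 RPKM, then Gopc at 5.37 ± 1.51 and Homer2 at 3.62 ± 0.830 RPKM, and 8 of its 10 differences were negative.

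The neurexin superfamily was represented by 7 contactin-associated genes, all tested. Cntnap2, which places potassium channels beside nodes of Ranvier, was at 7.61 ± 1.92 RPKM, Cntnap4 at 7.39 ± 3.00 and Cntnap1 at 1.64 ± 0.511 RPKM. Their median difference was 0.45 in females and -0.81 in males. For males minus females in that effect, edgeR called 0 of 7, DESeq2 called 0 of 7, and 2 of 7 had an unadjusted p under 0.05, against 11.7% of all genes. The remaining list held 32 other organizers of synapses, 30 of them tested. Its highest genes were Cadm1 at 90.8 ± 21.6, Ptprs at 20.5 ± 6.61 and Ptprf at 16.3 ± 4.24 RPKM, and 25 of its 30 differences averaged over the sexes were negative. In females 13 were positive and 17 negative, and in males 4 and 26. Signs without D and E are not given here.

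With the replicate block 8 of 79 list genes were called in the average over the sexes, where 5.43% of genes were. Clstn3 (0.64) and Apba2 (0.58) were higher at L6S1, and Ntrk3 (-0.69), Gopc (-0.54), Lin7a (-0.58), Clstn2 (-0.61), Cadm2 (-0.85) and Flrt1 (-0.49) were lower. In males alone the block called 6 of 79, where 4.67% of genes were, with Apba2 (1.09), Dag1 (1.02) and Dlg4 (0.94) higher and Ntrk3 (-1.01), Gopc (-0.84) and Lin7a (-1.14) lower. Between the sexes the block called 3 of 79, Cntnap5a (-0.76), Lin7a (-0.71) and Tenm2 (-0.98), all lower in males, where 2.4% of genes were called. Without the block 0 of 79 were called between the sexes by edgeR and by DESeq2, and 8 (10.1%) had an unadjusted p under 0.05, against 6.1% of all genes.

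**Figure D5:**
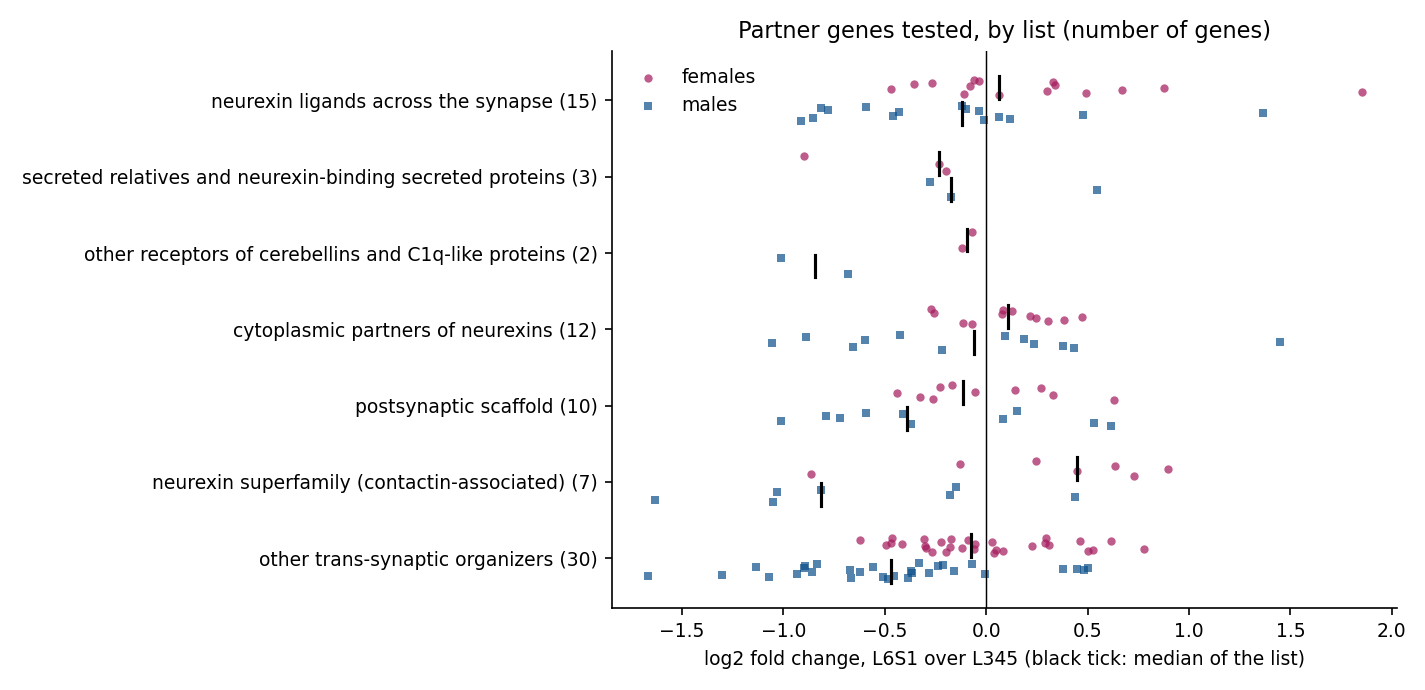
Fitted log2 fold change of L6S1 over L345 (horizontal axis) of the 79 partner genes tested, by list, in females (circles) and males (squares); black ticks are list medians. The contactin-associated genes have a median of 0.45 in females and -0.81 in males, and the other organizers of synapses -0.07 and -0.47.

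For each member fitted, the genes with the most similar profile over the 13 libraries were found by the root mean square difference of log2 CPM after centring each gene on its mean. This is a description, over libraries that share their level and sex, and gives no p. Nearest to Cbln1 were C1qtnf7, a secreted protein with a C1q domain of its own, at 0.262, Upp1, a uridine phosphorylase, at 0.401, Smim1 at 0.417, Smim3 at 0.456 and Mrap2, an accessory protein of melanocortin receptors, at 0.468. The profile of Cbln1 itself had an SD of 1.04 on this scale. C1qtnf7 had a mean log2 CPM of 4.02 at L345 and 5.80 at L6S1.

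Nearest to Cbln4 were the nicotinic receptor subunit genes Chrnb4 at 0.806 and Chrna3 at 0.856 and the olfactomedin Olfm2 at 0.964, against an SD of 1.58. These distances are large beside those of the other members, and Cbln4 had the fewest reads of the 6 members fitted. Cbln2 was nearest to Chn2 at 0.187, Lurap1 at 0.238 and Adgra3 at 0.258. Grid1 was nearest to Ctbp2 at 0.168, Amigo2 at 0.249 and Dixdc1 at 0.259. Nrxn3 had the smallest distances of the 6, to Slc25a36 at 0.147, Cbll1 at 0.150 and Spty2d1 at 0.152, and Nrxn2 was nearest to Tbkbp1 at 0.185, Mtch1 at 0.193 and Abhd14b at 0.194.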

How the data were processed

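Bulk RNA was sequenced from reporter-sorted DRG cells in 13 libraries, made from 10 ng of RNA with a SMARTer kit, per the labels' protocols. Per the submitters' processing notes, the tools were Salmon, Subread with featureCounts 1.4.5, and STAR 2.0.4b, and the builds mm10 and GRCm38.p2, with no role for any. The treatment of reads mapping to several genes is not given in the sources used here. Deposited counts are whole reads per gene and were the input of every test. The deposited CPM and RPKM were recomputed from those counts and the gene lengths in the files, and differed by no more than rounding. They were not used further. Libraries were pools of mice, and p-values measure the spread between pools. Reads were amplified and carry no molecular identifiers, so they do not count molecules.

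Counts were filtered with filterByExpr, scaled with TMM factors (0.796 in male L6S1 E, 0.925 in D, 1.01 to 1.05 elsewhere) and fitted in edgeR 4.0.16 (R 4.3.3; quasi-likelihood F-test, robust setting) with 1 mean per group over 13 libraries and Benjamini-Hochberg adjustment over 15406 genes. Each SE was computed as the fold change (log2) divided by the root of F. The CPM printed is the count over the total times the TMM factor, and RPKM is that value per kilobase. Scripts were tested on simulated data. Symbols came from a table of gene identifiers (40254 matched, 1134 not, the latter with 0.109% of counts) and gene coordinates from the deposited files.

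Same-lettered libraries of the 2 levels share a label. Correlations of their deviations from the group means were 0.520, 0.203 and 0.488 in female A, B and C and 0.101 in male A. Pairs with different letters reached 0.252 in females (L345 C with L6S1 B) and 0.207 in males (L345 C with L6S1 F). In males the same letter thus did not stand highest. The main fit had no term for the letters. As all same-letter values were over 0.1, a fit that treated the letters as pairing was run as an alternative. These correlations do not settle whether equal letters mark the same mice. The replicate block (4 residual degrees of freedom) is printed where it changes a call. Each letter has a single term shared by both sexes, although female and male libraries hold different mice. Male L6S1 D, E and F have letters of their own, so the male L6S1 mean in the block rests on library A. Alternatives were DESeq2 1.42.0, RLE factors, library totals, no filter, the replicate block, each library left out, and D and E left out. The text names all members, in each partner list the 3 highest genes by RPKM and any gene called by the edgeR fit without a block (there was none), and the 5 genes nearest to Cbln1 and 3 nearest to the other members. Genes named for a call with the replicate block, and Igsf21, were chosen after their values were seen. Members and lists were chosen with earlier results of these data known.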

Additional observations from a re-analysis of the deposited data

How the results depend on the processing

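Counts of genes called moved more than the members. DESeq2 called 187, 47, 965 and 24 genes in the average over the sexes, in females, in males and between the sexes, where the edgeR fit called 69, 3, 34 and 12. Without a filter on low counts these were 144, 34, 264 and 19, and 1 gene for the difference of the level effect between the sexes, where edgeR called 0. With the replicate block they were 837, 96, 719 and 369, and 31 for that difference, and Cbln1 was at 1.23. Without male L6S1 D and E they were 23 in females, 19 in males and 7 between the sexes. Leaving out 1 library gave 28 (without female L345 B or male L345 C) to 129 (without male L6S1 A) in the average, 0 (without female L345 B) to 11 (without male L6S1 E) in females and 4 (without male L345 C) to 3135 (without male L6S1 A) in males, and kept Cbln1 between 1.75 and 2.19.

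Of 570 fold changes of members under alternatives, 21 changed sign, in 9 quantities that were called in none of the fits run. Between levels there were 10: Nrxn2 in the average, at 0.03 and from -0.31 (block) to 0.13, Nrxn3 in the average, at 0.006 without D and E, and, with the block in males, Nrxn2 at -0.12 and Grid1 at -0.11. The other 11 were these. For males against females, Cbln1 was at 0.07 and became -0.026 with library totals only, -0.59 with the replicate block, -0.04 without female L6S1 C or male L6S1 E, -0.21 without male L345 B and -0.16 without D and E; Grid1 became -0.12 with the block. For the difference of the level effect between the sexes, Cbln1 became -0.37 and Cbln4 0.15 with the block, Cbln2 0.0101 without male L345 A and Cbln4 3.65 without male L345 C. With 1 library left out, these ran from -0.21 to 0.22 for Cbln1 between the sexes and, for the difference of the level effect, from -0.57 to 0.0101 for Cbln2 and -2.03 to 3.65 for Cbln4. The cause was not tested. Low counts limit Cbln3 and Cbln4.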
